A study of Arabidopsis thaliana with 4 samples.

Results

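The genes described here encode proteins of the large (60S) subunit of the cytosolic ribosome of Arabidopsis thaliana. They were chosen by locus from a list of 60 genes in 27 protein families, and a probe set counted where the platform annotation named 1 of these genes alone. This gave 37 probe sets for 37 genes, out of 22810 probe sets on the array, and all 37 passed the minimum signal for the test. Of the other 23 genes, 4 were listed on 2 probe sets shared with another gene, AT1G74050 with AT1G74060 (L6) and AT1G33120 with AT1G33140 (L9). These were the 2 pairs of neighbouring genes within the list. The remaining 19 had no listed probe set, among them all genes of the L3, L5, L8, L10, L11, L23, L23a, L24 and L27a families. No gene of these 9 families was analysed here, and 18 families had at least 1 tested gene. The annotation named no gene for 8730 probe sets, so a gene without a listed probe set need not be absent from the array.

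Single-colour Affymetrix arrays carried RNA of 2 samples of Col-0 plants titled as overexpressing At1g54160 and of 2 wild type samples. At1g54160 is NFYA5, the A subunit of a nuclear factor Y complex that binds CCAAT boxes in promoters. All samples were whole seedlings of 2 weeks, grown at 22 °C on agar plates with 3% sucrose in a daily cycle of 16 h light and 8 h dark, and none was treated. The design text speaks of an nfya5 mutant in place of the overexpressor of the titles, and groups were taken from the titles. At1g54160 had 0 listed probe sets, so its level did not check the label, and the transgene's promoter and the number of lines are not named in the sources used here. No label says that the 2 samples of a group came from separate cultures, so the spread behind each p-value is that of these samples alone and may be technical.

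The 60S subunit holds the catalytic centre that joins amino acids, the tunnel through which the new protein leaves, and 2 movable stalks that handle transfer RNA and elongation factors. In Arabidopsis each of its proteins is encoded by a small family of closely related genes, the paralogues, and loss of single members is known to alter growth and leaf shape. Ribosomal protein genes are among the most strongly transcribed genes of growing tissue, and they are usually transcribed in step with each other and with the 40S subunit genes. The family names used here come from general knowledge of the ribosomal protein nomenclature, since the gene table lists most of these genes by locus only.

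As a group the 60S genes had slightly higher signals on the overexpressor arrays, and no single gene passed the test. The median log2 fold change of the 37 genes, overexpressor over wild type, was 0.11, a fold of 1.08, beside 0.02 over all 13961 tested probe sets. With each array centred on its median these medians were 0.058 and -0.031. Such centring moves every log2 fold change by the same amount, so the distance of 0.089 between the medians could not change. Of the 37 genes, 31 had a positive log2 fold change (83.8%, beside 53.2% of all tested probe sets). The range ran from -0.37 for AT5G23900 (L13) to 0.36 for AT5G22440 (L10a), so all differences lay between a fold of 0.773 and a fold of 1.29. Log2 fold changes here are on the log2(signal + 50) scale, which hardly alters values as bright as these.

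In limma's moderated test, adjusted over all tested probe sets, 0 of 37 genes passed as higher and 0 as lower at an adjusted p of 0.05. Of all tested probe sets 0.53% passed as higher and 0.759% as lower, so a list of this size with no gene past the threshold is near the background. At an unadjusted p of 0.05, 7 genes (18.9%, beside 8.44% of all) were on the higher side and 1 (2.70%, beside 8.08%) was on the lower side. The 2 arrays of each group did not overlap with higher overexpressor signals in 21 genes (56.8%, beside 26.1%) and with lower ones in 1 gene (2.70%, beside 22%). The genes share the same 4 arrays and are not replicates of each other, so these counts describe the arrays and carry no test. The SE of a gene's log2 fold change was 0.09 to 0.12, and the 95% confidence intervals reached at most a fold of 1.47 upward and 0.659 downward.

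**Figure D1:**
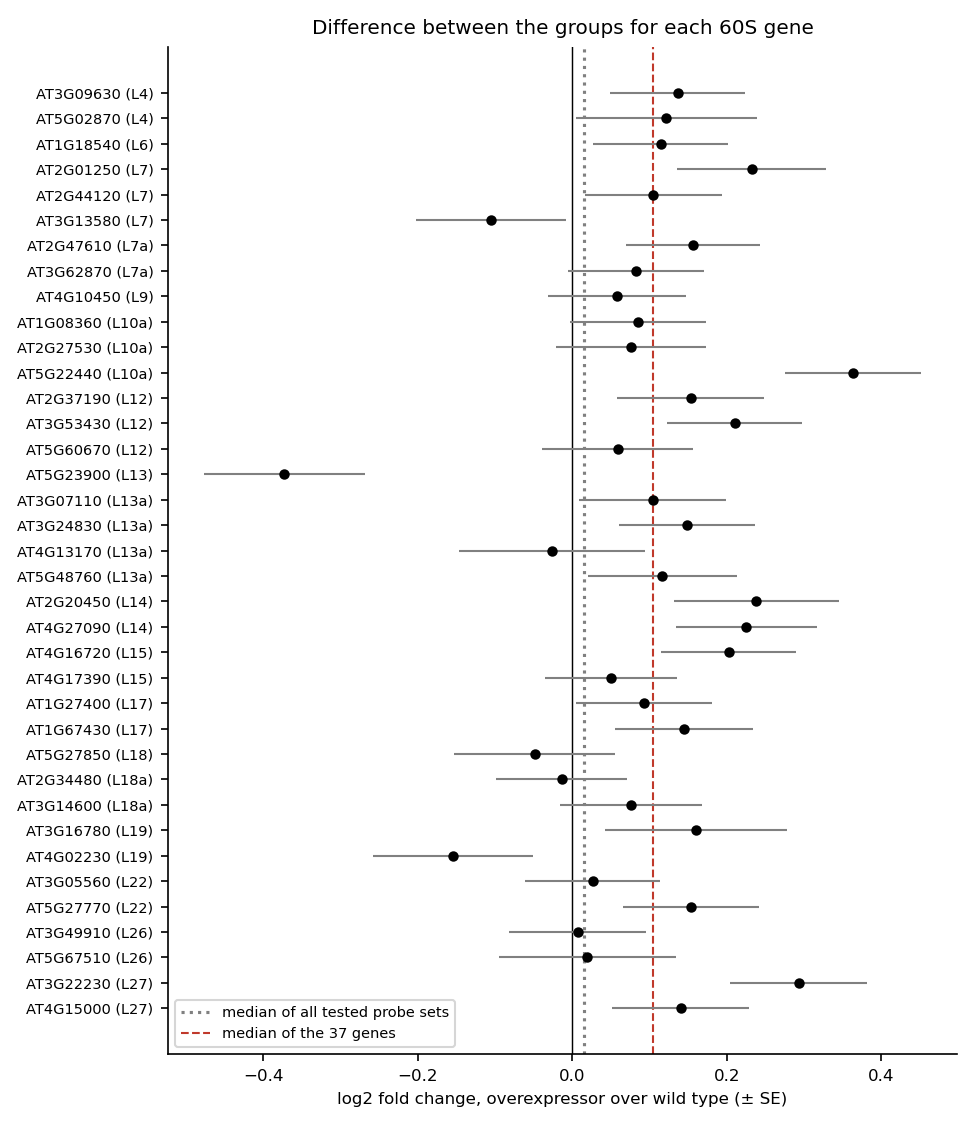
Log2 fold change of each of the 37 genes, overexpressor over wild type, on the x axis, with bars of 1 SE from limma (2 arrays per group) and 1 row per gene ordered by family. Most points lie right of 0, around the dashed line at the genes' median of 0.11, whereas the dotted line marks the median of 0.02 over all tested probe sets; AT5G22440 (0.36) and AT5G23900 (-0.37) lie farthest out.

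The joint shift was larger than the difference between the 2 arrays of either group, and of the same order. Each gene's log2 signal was set against its own mean over the 4 arrays and then averaged over the 37 genes. This mean was 0.06 on overexpressor replicate 1 and 0.03 on overexpressor replicate 2, against -0.02 on wild type replicate 1 and -0.08 on wild type replicate 2. The groups did not overlap, and they differed by 0.09, while the 2 wild type arrays differed by 0.06 and the 2 overexpressor arrays by 0.03. Over all tested probe sets the same means were 0.01 and 0.005 on the overexpressor arrays and -0.02 and 0.002 on the wild type arrays. With 2 arrays against 2, an exact permutation test cannot give a p below 0.333, and no test of the shift was made.

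Array by array, the lean towards higher overexpressor signals held in all 4 combinations, and it was stronger against wild type replicate 2. Overexpressor replicate 1 was higher than wild type replicate 1 in 27 of 37 genes (73.0%, beside 54.0% of all tested probe sets) and higher than wild type replicate 2 in 33 (89.2%, beside 51.6%). Overexpressor replicate 2 was higher than wild type replicate 1 in 25 genes (67.6%, beside 53.3%) and higher than wild type replicate 2 in 31 (83.8%, beside 51.0%). Within the groups, overexpressor replicate 1 was above overexpressor replicate 2 in 19 of 37 genes (51.4%, beside 49.9% of all tested probe sets). Wild type replicate 1 was above wild type replicate 2 in 24 (64.9%, beside 47.8%), so the 2 wild type arrays also differed by a lean.

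**Figure D2:**
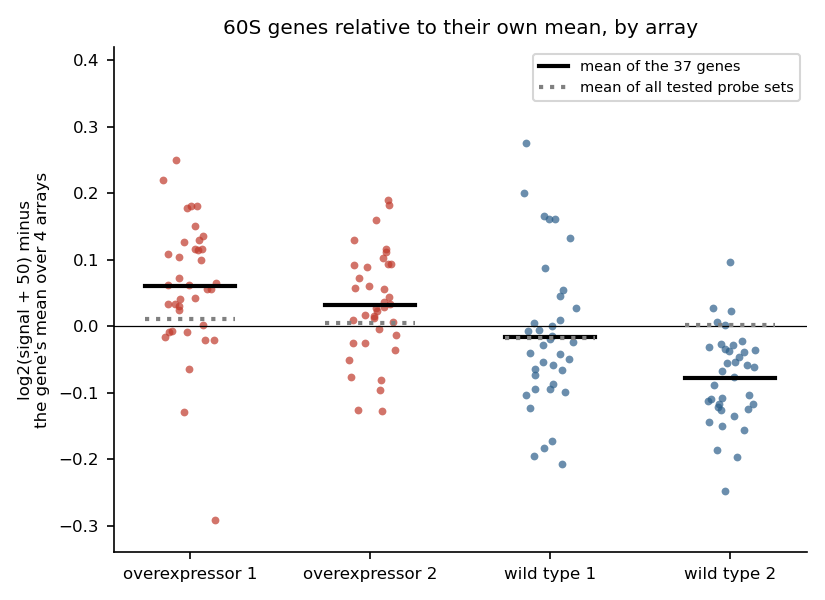
Log2(signal + 50) of each of the 37 genes (points) minus that gene's mean over the 4 arrays, by array; solid bars are the mean of the 37 genes (0.06, 0.03, -0.02 and -0.08 from left to right) and dotted bars the mean of all tested probe sets. Both overexpressor means lie above both wild type means, and the points of every array spread more widely than the means differ.

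The 37 genes were among the brightest on the arrays. Their mean signals over the 4 arrays ran from 1511 to 13275 with a median of 5737, and the dimmest lay above 83.6% of all tested probe sets, whose median was 456. In RNA of whole seedlings, more cells of a type and more RNA per cell cannot be told apart. Signals of different probe sets depend on how well their probes bind as well as on the transcript, so the signals of paralogues are given side by side below and are not read as an order of abundance.

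**Figure D3:**
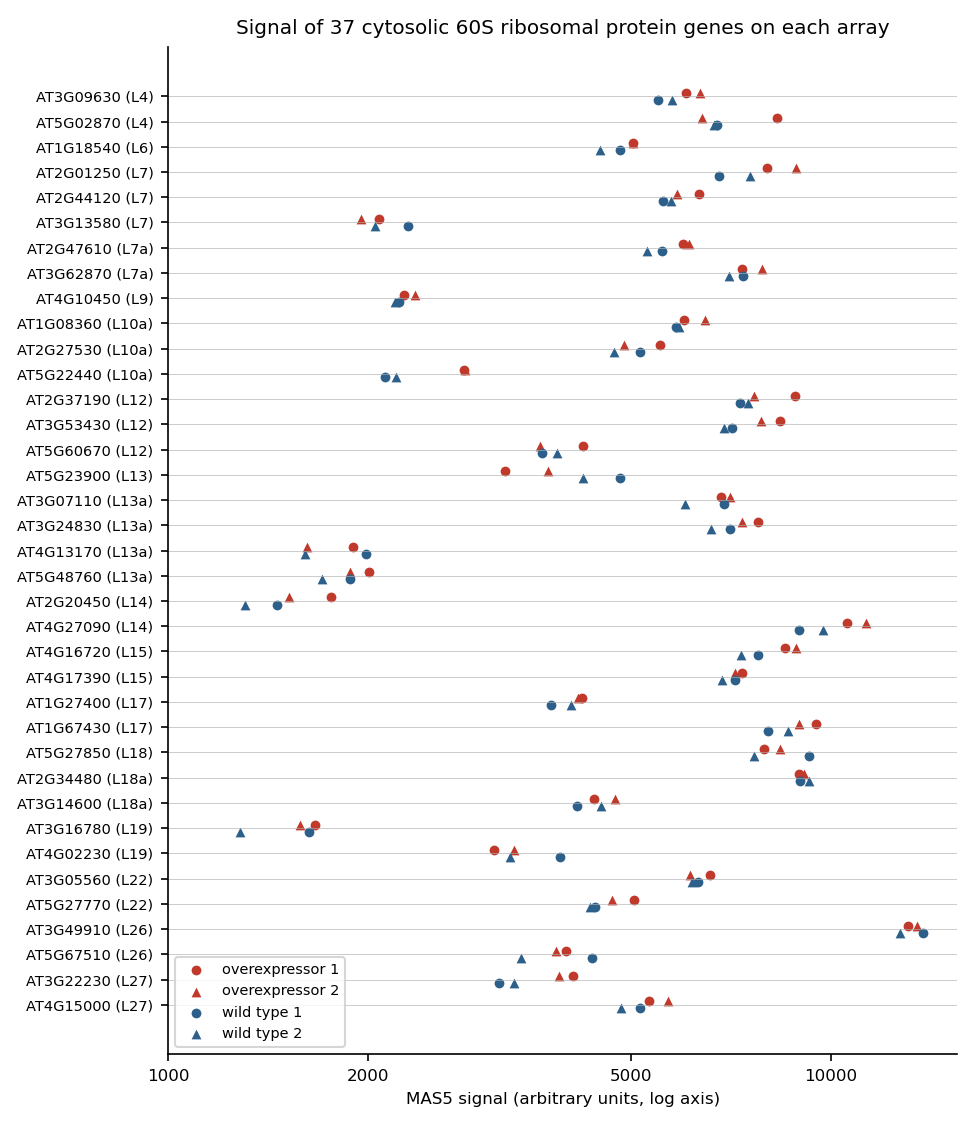
MAS5 signal of the 37 genes on each array, in arbitrary units on a log axis, 1 row per gene ordered by family; red marks overexpressor arrays, blue wild type arrays, circles replicate 1 and triangles replicate 2. Differences between the groups are small beside the span from 1511 to 13275 between probe sets, which includes differences in probe binding.

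The L10a proteins (uL1 in the universal naming) form the stalk beside the site where spent transfer RNA leaves. All 3 genes of this family were tested. The signal of AT5G22440 was 2796 and 2802 in overexpressor samples, against 2126 and 2205 in wild type, a log2 fold change of 0.36 ± 0.09 (SE; limma, adjusted p = 0.0758). Its 95% confidence interval was 0.17 to 0.56, and it was the largest positive value of the list. The groups did not overlap, and the overexpressor arrays nearly coincided. AT1G08360 had 6004.5 and 6453 on the overexpressor arrays, against 5837 and 5893 in wild type, with a log2 fold change of 0.09 ± 0.09. AT2G27530, the gene PGY1 (PIGGYBACK1), had 5523 and 4879 on the overexpressor arrays, against 5151 and 4705 in wild type, with a log2 fold change of 0.08 ± 0.10. The groups of PGY1 overlapped, and those of AT1G08360 did not.

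The L12 proteins (uL11) sit at the base of the other stalk, where elongation factors dock. AT3G53430 had 8373 and 7862 on the overexpressor arrays, against 7100.3 and 6914 in wild type, giving a log2 fold change of 0.21 ± 0.09 (adjusted p = 0.26). AT2G37190 had 8833 and 7671 on the overexpressor arrays, against 7303 and 7493 in wild type (log2 fold change 0.15 ± 0.10). The groups did not overlap in either gene, although the overexpressor arrays of AT2G37190 were farther apart than its group means. AT5G60670 had 4222.5 and 3639 on the overexpressor arrays, against 3668 and 3858 in wild type, so its groups overlapped (log2 fold change 0.06 ± 0.10).

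The proteins L4 (uL4), L17 (uL22), L19 (eL19) and L26 (uL24) lie along or around the exit of the tunnel for the new protein. AT3G09630 (L4) had 6043 and 6348 on the overexpressor arrays, against 5495 and 5768 in wild type, with a log2 fold change of 0.14 ± 0.09. AT5G02870 (L4) had 8313 on overexpressor replicate 1 and 6390.0 on overexpressor replicate 2, against 6726 and 6662 in wild type. Its log2 fold change of 0.12 ± 0.12 rested on overexpressor replicate 1, without which it was -0.07. Both L17 genes had groups that did not overlap. AT1G67430 had 9506 and 8944 on the overexpressor arrays, against 8051 and 8628 in wild type (log2 fold change 0.14 ± 0.09), and AT1G27400 had a log2 fold change of 0.09 ± 0.09.

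The L19 and L26 genes gave values of both signs or near 0. AT4G02230 (L19) had 3098 and 3332 on the overexpressor arrays, against 3905 and 3283 in wild type, giving a log2 fold change of -0.15 ± 0.10 (adjusted p = 0.506). Its groups overlapped, since wild type replicate 2 lay between the overexpressor arrays, while wild type replicate 1 stood above the other 3 arrays. AT3G16780 (L19) had 1666 and 1582 on the overexpressor arrays, against 1632 and 1283 in wild type, with a log2 fold change of 0.16 ± 0.12. Here wild type replicate 2 stood below the other arrays, and without it the value was -0.007. The brightest gene of the list, AT3G49910 (L26), had 13083 and 13523 on the overexpressor arrays, against 13778 and 12718 in wild type, a log2 fold change of 0.01 ± 0.09 with a 95% confidence interval of -0.19 to 0.20. AT5G67510 (L26) had a log2 fold change of 0.02 ± 0.11, with overexpressor arrays at 3979 and 3852 between the wild type arrays at 4369 and 3412.

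Among the proteins of the subunit's body, the L7 family (uL30) held the widest range of fold changes. AT2G01250 had 8004 and 8864 on the overexpressor arrays, against 6782 and 7565 in wild type, giving a log2 fold change of 0.23 ± 0.10 (adjusted p = 0.261). AT2G44120 had 6336 and 5859 on the overexpressor arrays, against 5578 and 5746 in wild type (log2 fold change 0.11 ± 0.09). AT3G13580, by contrast, had 2081 and 1954 on the overexpressor arrays, against 2299 and 2052 in wild type, with a log2 fold change of -0.10 ± 0.10. The groups of AT3G13580 overlapped, and those of the other 2 genes did not. In the L7a family (eL8), AT2G47610 had a log2 fold change of 0.16 ± 0.09 and AT3G62870 of 0.08 ± 0.09.

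The L13 protein (eL13) has 1 tested gene, and it was the 1 gene of the list whose groups did not overlap on the lower side. AT5G23900 had 3224 and 3739 on the overexpressor arrays, against 4801 and 4234 in wild type, giving a log2 fold change of -0.37 ± 0.10 (adjusted p = 0.107, 95% confidence interval -0.60 to -0.14). With each array left out in turn, its log2 fold change ran from -0.48 to -0.27. The sign could not turn there, because the groups do not overlap. AT3G49010 (BBC1), the other gene of this family in the list, had no listed probe set.

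The L13a family (uL13) had 4 tested genes, and 3 of them had positive values. AT3G24830 had 7778 and 7343 on the overexpressor arrays, against 7038.5 and 6595 in wild type (log2 fold change 0.15 ± 0.09), with no overlap. AT5G48760 and AT3G07110 had log2 fold changes of 0.12 ± 0.10 and 0.10 ± 0.09. AT4G13170 had 1902.5 and 1621 on the overexpressor arrays, against 1987 and 1610.5 in wild type, and replicates of 1 group differed more than the groups (log2 fold change -0.03 ± 0.12).

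Both genes of the L14 family (eL14) had values on the higher side. AT4G27090 had 10572 and 11300.5 on the overexpressor arrays, against 8963 and 9735.5 in wild type, giving a log2 fold change of 0.23 ± 0.09 (adjusted p = 0.246). AT2G20450 had 1759.5 and 1522 on the overexpressor arrays, against 1458 and 1306 in wild type, giving a log2 fold change of 0.24 ± 0.11 (adjusted p = 0.297). The groups did not overlap in either gene, of which one has a bright and the other a dim probe set. In the L15 family (eL15), AT4G16720 had 8521 and 8874 on the overexpressor arrays, against 7777 and 7328 in wild type (log2 fold change 0.20 ± 0.09, adjusted p = 0.278), and AT4G17390 had a log2 fold change of 0.05 ± 0.09.

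The L27 proteins (eL27) included the second largest positive value. AT3G22230 had 4082.5 and 3886 on the overexpressor arrays, against 3159 and 3327 in wild type, giving a log2 fold change of 0.29 ± 0.09 (adjusted p = 0.133, 95% confidence interval 0.10 to 0.49). AT4G15000 had 5327 and 5682 on the overexpressor arrays, against 5152 and 4828 in wild type (log2 fold change 0.14 ± 0.09). The groups did not overlap in either gene. In the L22 family (eL22), AT5G27770 had a log2 fold change of 0.15 ± 0.09 with groups that did not overlap, and AT3G05560 of 0.03 ± 0.09 with groups that did.

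The remaining 5 tested genes lay close to 0 or to the median of the list. AT1G18540 (L6, eL6) had 5027 and 5034 on the overexpressor arrays, against 4808 and 4483 in wild type (log2 fold change 0.11 ± 0.09). AT4G10450 (L9, uL6) had a log2 fold change of 0.06 ± 0.09. AT3G14600 and AT2G34480 (L18a, eL20) had 0.08 ± 0.09 and -0.01 ± 0.09. AT5G27850 (L18, eL18) had 7932 and 8383 on the overexpressor arrays, inside the span of the wild type arrays at 9281 and 7667, with a log2 fold change of -0.05 ± 0.10.

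Whether paralogues kept their balance was read from the log2 ratio of 2 paralogues within each array, in which the binding of the probes cancels when arrays are compared. There were 25 such pairs in 14 families, and the ratio (the paralogue with the higher fold change on top) differed between the groups by 0.01 to 0.34, with a median of 0.13. The widest was AT2G01250 over AT3G13580 (L7), with log2 ratios of 1.92 and 2.15 on the overexpressor arrays, against 1.54 and 1.86 in wild type. Its group difference of 0.34 stood beside a difference of -0.32 between the wild type arrays (replicate 1 minus replicate 2). The ratio of AT5G22440 over AT1G08360 (L10a) was -1.09 and -1.19 on the overexpressor arrays, against -1.44 and -1.40 in wild type. This difference of 0.28 was larger than those within the groups, 0.10 between the overexpressor arrays and -0.04 between the wild type arrays (replicate 1 minus replicate 2). AT3G16780 over AT4G02230 (L19) had -0.88 and -1.05 on the overexpressor arrays, against -1.23 and -1.32 in wild type.

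The ratios of the 2 groups did not overlap in 14 of the 25 pairs. In 11 pairs the groups differed by more than the arrays of either group. No such share was computed for other pairs of probe sets, and pairs of 1 family share genes, so these counts are descriptive. Of all single tested probe sets, 26.1% did not overlap on the higher side and 22% on the lower side. AT5G27770 over AT3G05560 (L22) had the closest arrays within groups, with log2 ratios of -0.38 and -0.39 on the overexpressor arrays, against -0.51 and -0.51 in wild type. In some pairs the ratio differed between the groups by less than it did between arrays of 1 group. AT2G20450 over AT4G27090 (L14) had log2 ratios of -2.55 and -2.85 on the overexpressor arrays, against -2.58 and -2.85 in wild type, so the ratio went with the replicate number and not with the group. AT3G09630 over AT5G02870 (L4) had -0.46 and -0.01 on the overexpressor arrays, against -0.29 and -0.21 in wild type. The pair AT1G08360 over AT2G27530 (L10a) and the pair AT5G67510 over AT3G49910 (L26) each differed by 0.01 between the groups. None of these ratios was tested, because the pairs were ordered by the same fold changes and 2 arrays against 2 allow no exact p below 0.333.

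**Figure D4:**
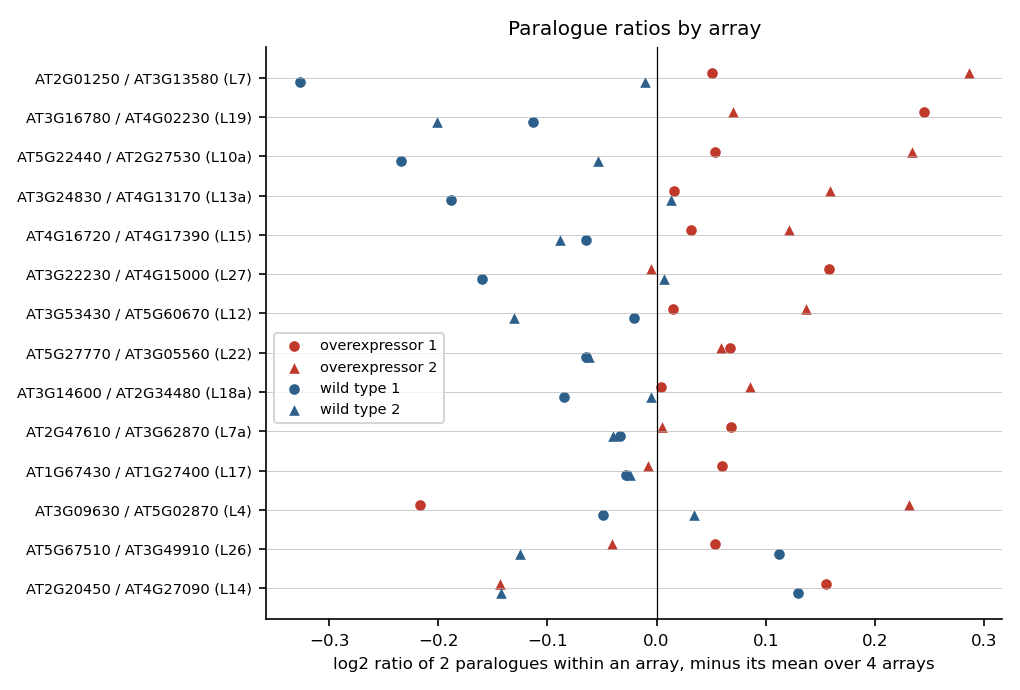
For each of 14 families, the pair of paralogues whose log2 ratio differed most between the groups; the x axis gives the ratio on each array minus its mean over the 4 arrays (red overexpressor, blue wild type, circles replicate 1, triangles replicate 2). The groups do not overlap in 10 of the 14 pairs, most closely grouped in the L22 pair, and overlap in the L27, L4, L26 and L14 pairs. The pairs were picked by this same group difference, so the count of 10 is no evidence of separation.

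Other ribosomal protein genes leaned the same way. A list of 70 further genes of the cytosolic 60S subunit had 45 probe sets, of which 38 were tested, and their median log2 fold change was 0.14, with 34 of 38 positive (89.5%, beside 53.2% of all tested probe sets). The 93 genes of the 40S subunit, which reads the messenger RNA, had 47 probe sets, of which 42 were tested, with a median of 0.15 and 39 of 42 positive (92.9%). In each list 0 genes passed in limma's test as higher and 0 as lower; at an unadjusted p of 0.05, 9 further 60S genes (23.7%) and 7 of the 40S genes (16.7%) were on the higher side, beside 8.44% of all tested probe sets, and 0 on the lower side, beside 8.08%. The mean centred log2 signal of the 40S genes was 0.08 and 0.06 on the overexpressor arrays, against -0.08 and -0.07 in wild type. For the further 60S genes it was 0.07 and 0.09 on the overexpressor arrays, against -0.04 and -0.11 in wild type, so the wild type arrays lay apart as they did for the 37 genes.

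The log2 fold changes ran from -0.14 to 0.40 in the further 60S list and from -0.13 to 0.39 in the 40S list, and the genes named next had the largest values of their list. AT4G25890, for the acidic stalk protein P3, had 1245 and 1242.5 on the overexpressor arrays, against 1029.9 and 841.4 in wild type (log2 fold change 0.40 ± 0.11, adjusted p = 0.111). AT3G28500, for the stalk protein P2, had 151.5 and 108.4 on the overexpressor arrays, against 84.3 and 86.2 in wild type, a log2 fold change of 0.40 ± 0.19 (adjusted p = 0.316). The mean signal of AT3G28500 over all arrays, 107.6, lay just above the minimum for the test. Its wild type mean of 85.25 lay below that minimum, so the gene was tested only because of its overexpressor signals. In the 40S list, AT1G23410 and AT3G57490, for S27a and S2, had log2 fold changes of 0.39 ± 0.15 (adjusted p = 0.224) and 0.36 ± 0.13 (adjusted p = 0.204).

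Genes that act beside the cytosolic ribosome had few tested members. Of 24 genes for nuclear-encoded proteins of the plastid 50S subunit 7 were tested, with a median log2 fold change of 0.15 and 6 of 7 positive (85.7%, beside 53.2% of all tested probe sets). Of these, AT4G17560 and AT5G47190, both for plastid L19, had 0.32 ± 0.09 (adjusted p = 0.118) and 0.26 ± 0.10 (adjusted p = 0.207). Of 25 ribosome assembly factors 9 were tested, with a median of 0.07 and 7 positive (77.8%). Among them AT3G22660, for the nucleolar protein EBP2, had 0.33 ± 0.13 (adjusted p = 0.225). The 3 tested translation factors of 19 had a median of 0.04, and RAPTOR1, the 1 tested gene of 5 in TOR signalling, a growth pathway that controls ribosome production, had -0.05 ± 0.13. In each of these lists 0 genes passed in limma's test; at an unadjusted p of 0.05 there were 3 plastid 50S genes (42.9%) and 1 assembly factor (11.1%), all on the higher side, beside 8.44% of all tested probe sets.

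**Figure D5:**
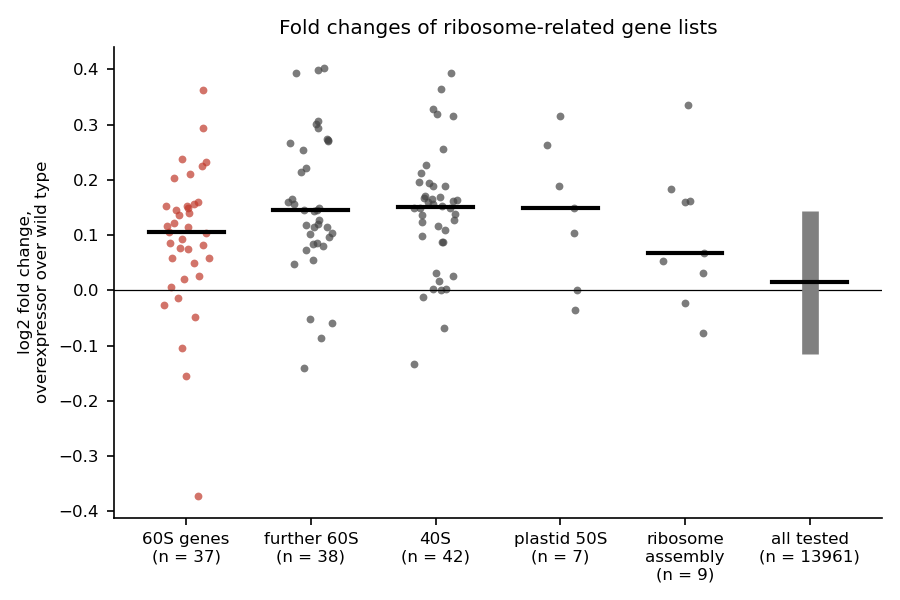
Log2 fold change, overexpressor over wild type, of each gene (points) in the 60S genes described here, further 60S genes, 40S genes, nuclear-encoded plastid 50S genes and ribosome assembly factors; black bars are medians (0.11, 0.14, 0.15, 0.15 and 0.07), and the grey bar spans the quartiles of all tested probe sets, from -0.12 to 0.14. The points of the ribosomal protein lists lie mostly above 0, at values that many other probe sets also reach. The medians of the further 60S, 40S and plastid 50S genes lie slightly above the top of the grey bar.

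Tissue markers and reference genes gave no value past the threshold. RCA, LHCB4.2 and LHCB4.1, the 3 tested green tissue markers out of 5, had log2 fold changes of -0.06 ± 0.09, -0.04 ± 0.09 and 0.01 ± 0.09. The mean centred log2 signal of the 3 was -0.08 and 0.05 on the overexpressor arrays, against -0.03 and 0.06 in wild type. EXPA18, EXPA7 and PYK10, the 3 tested root markers out of 4, had -0.37 ± 0.17, 0.11 ± 0.15 and 0.11 ± 0.09, and the 3 had means of -0.04 and -0.006 on the overexpressor arrays, against -0.09 and 0.14 in wild type. Of the 6 markers of dividing cells 0 were tested, so the share of dividing cells was not analysed here. Of 6 reference genes 3 were tested, PEX4 with -0.21 ± 0.10, AT4G34270 with -0.09 ± 0.11 and GAPC2 with 0.08 ± 0.08, so their values had both signs. The part of tissue mix in the shift of the 60S genes was not tested.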

How the data were processed

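The authors deposited intensities per probe set, MAS5 signals (version not stated) per the submitters' processing notes, which per the labels were scaled to a target of 500 on every array. This scaling hides a change shared by most transcripts. All 4 arrays were used, grouped by sample title, with median signals of 181.4 to 194.1; the number of arrays limits the precision. Names came from the platform annotation and the TAIR10.1 gene table. After control probe sets and those with a mean signal under 100 were left out, 13961 remained. The values log2(signal + 50) entered limma 3.58.1 (R 4.3.3) with 1 term for the group and an eBayes variance prior that follows intensity, two-sided, with Benjamini-Hochberg adjustment over all tested probe sets and a threshold of 0.05. The test was tried on simulated data. Log2 fold changes are overexpressor minus wild type, and errors are SE.

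The members and lists were chosen with earlier results of these data known. Text names were taken by rule: members past the threshold, the 6 largest values in each direction, and the extremes of each family. Members whose groups do not overlap and up to 2 genes of each other list were also named. AT3G07110, LHCB4.1, PYK10 and GAPC2 lay outside these rules and were named after their values were seen. Planned promoter motif counts were not made, since no promoter sequences were used here. Alternatives were other pseudocounts (1, 16, 100), filters (none, 250 and, added after the data were seen, 1500), quantile or median scaling, other variance priors, a replicate block, each array left out, and other choices of probe set.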

Additional observations from a re-analysis of the deposited data

How the results depend on the processing

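The median log2 fold change of the 37 genes lay between 0.058 and 0.129 under every alternative run, and 26 to 33 of the 37 were positive. Only the pseudocounts, the scalings and the arrays left out could move these values. The filters, variance priors, replicate block and probe set choices leave each gene's log2 fold change as it was. The median was 0.058 with each array centred on its median. There the median of all tested probe sets was -0.031 and 28 of 37 genes were positive. The distance between both medians was 0.089 in the values reported, and median centring cannot change it. This distance was 0.121 with quantile normalization and 0.072 to 0.125 with 1 array left out. With a minimum signal of 1500, which all 37 genes pass, 2308 probe sets were tested and 49.4% of them were positive.

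No 60S gene passed as higher or lower except under 3 settings. With the replicate block 2 passed as higher, AT5G22440 and AT3G22230, and 1 as lower, AT5G23900, while 1075 of all probe sets passed; same-numbered arrays deviated from their group means with a correlation of 0.056 over all tested probe sets, so the numbers were not taken as pairs. With the minimum signal of 1500, an alternative added after the data were seen, 1 passed as higher, AT5G22440 (limma, adjusted p = 0.0414). Without overexpressor replicate 2, 1 passed as lower (0 to 1 over the arrays left out). Over all probe sets, 180 passed as reported, 1 with no filter, 9 with a constant variance prior, 383 with median centring, and 101 to 489 with 1 array left out. The cause was not tested.

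Signs turned only for 10 genes, all with values near 0 or with overlapping groups. With quantile normalization the log2 fold change was 0.0033 for AT4G13170 and -0.00033 for AT3G49910. With median centring it was -0.020 for AT3G05560, -0.040 for AT3G49910 and -0.027 for AT5G67510. Over the arrays left out in turn it was -0.17 to 0.12 for AT4G13170, -0.19 to 0.088 for AT5G27850, -0.034 to 0.0073 for AT2G34480, -0.0070 to 0.33 for AT3G16780, -0.051 to 0.064 for AT3G49910, -0.16 to 0.20 for AT5G67510, -0.013 to 0.16 for AT2G27530, -0.047 to 0.16 for AT5G60670, -0.022 to 0.076 for AT3G05560 and -0.066 to 0.31 for AT5G02870. The other 27 genes kept their sign under all alternatives, of which only the pseudocounts, scalings and arrays left out could change any sign. Among these 27 are the 21 genes without overlap on the higher side and the 1 on the lower side. In genes without overlap only the scalings could turn the sign, so pseudocounts and arrays left out are no check of it.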
